A study of Mus musculus with 28 samples.

Results

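The vertebrate Myb family has 3 members, and each was represented by 1 row of the count table: Myb, which encodes c-Myb, Mybl1, which encodes A-Myb, and Mybl2, which encodes B-Myb. They were taken by symbol from 24015 genes, and all 3 passed the filter that left 15238 genes for testing. The 28 mouse libraries, each made from 100 sorted cells, cover 9 populations along the passage from endothelium to blood cells. All embryos carried the transgene labelled 23GFP, whose driver the labels leave unexpanded, and no other genotype or treatment was compared. Hemogenic endothelium (HE), which gives rise to blood, was taken on all 3 embryonic days, and so were endothelial cells (EC). Embryos at E8.5 (embryonic day 8.5) gave 4 libraries of HE, and every other population has 3 libraries. A population labelled pro-HSC/HPC was added at E9.5, and pre-HSC I as well as pre-HSC II at E10.5. HPC stands for hematopoietic progenitor cell, and HSC for hematopoietic stem cell. The tissue label reads AGM+VU for the E10.5 libraries and PAS+VU for the earlier ones, so tissue label and day cannot be told apart between E9.5 and E10.5. Nothing in the labels says how many embryos were pooled for a library, or that replicates came from separate litters, and the p-values therefore speak of the scatter among these particular libraries, part or all of which may be technical.

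Myb proteins bind DNA through repeated tryptophan-rich helices near their amino terminus. c-Myb is a regulator of blood stem and progenitor cells, is required for definitive hematopoiesis in the fetal liver, and is switched off as blood cells mature. B-Myb is found in nearly all dividing cells, where it joins the MuvB complex to activate genes of the G2 and M phases, and its own gene is a classical target of E2F factors, held down in resting cells by the DREAM complex of MuvB with p107 or p130. A-Myb is best known from the testis, where it activates genes of meiosis and of the piRNA pathway.

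The coordinates in the count table are those of the mouse build mm9. Myb lay on chromosome 10 from 20844736 to 20880790 on the minus strand, with 16 merged exon blocks and an exonic length of 3777 bases. Mybl1 was on chromosome 1 from 9657492 to 9690290, also on the minus strand, with 16 exon blocks and 4984 bases. Mybl2 was on chromosome 2 from 162880371 to 162910423 on the plus strand, with 14 exon blocks and 3702 bases. Another gene of the table overlapped a member only at Mybl2, where the microRNA gene Mir7003 lay inside it on the same strand and was at 0 in all populations.

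Totals ran from 16308918 to 31405603 counts per library. Levels are given as CPM, a gene's share of the counts of its library after scaling the libraries to each other with TMM factors, as mean ± SD over libraries. Endothelial markers such as Cdh5 and Kdr summed to 3207 to 3473 CPM in E10.5 HE, to 959 to 1283 CPM in pre-HSC I and to 311 to 395 CPM in the pre-HSC II libraries, with none of the 7 markers at 0 in any population. In pro-HSC/HPC they still summed to 2048 to 2306 CPM, beside 2704 to 3214 CPM in E9.5 HE. The sum was lower in E8.5 HE, at 1648 to 2432 CPM. In EC it was 1099 to 1302 CPM at E8.5, 2179 to 2474 CPM at E9.5 and 2893 to 3229 CPM at E10.5. Blood progenitor markers (10 genes, Runx1 and Ptprc among them) ran from 106 to 146 CPM in E10.5 HE, from 462 to 510.0 CPM in pro-HSC/HPC, from 713 to 960.2 CPM in pre-HSC I and from 1618 to 1755 CPM in the pre-HSC II libraries. In EC their sum was 119 to 222 CPM at E8.5, 87.8 to 113 CPM at E9.5 and 45.0 to 117 CPM at E10.5. By this sum E10.5 HE thus overlapped EC. By the mean of log2(CPM + 1) over the tested genes of the same list it did not. That mean was 2.45 to 2.64 in E10.5 HE and 1.34 to 1.64 in E10.5 EC. In pro-HSC/HPC the 3 libraries stood apart from each other in erythroid markers, which summed to 13.1 CPM in replicate 1 and to 12147 CPM and 4070 CPM in replicates 2 and 3. Hemoglobin genes made up 1.11% and 0.422% of the counts of those 2 libraries, so the differences that rest on pro-HSC/HPC are also given without them. That leaves 1 library in the group, which is then assumed to vary like the other groups. Replicate 3 of pre-HSC I also stood apart, at 1407 CPM of erythroid markers against 22.7 and 18.95 CPM in the other two.

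Myb was close to absent from endothelium and early HE and reached its highest levels in the blood-forming populations. E8.5 EC libraries had 0.282, 0.353 and 0 CPM, and the 4 libraries of E8.5 HE had 0.116, 0.499, 0 and 0.716 CPM. In E9.5 EC the values were 0, 0.388 and 1.05 CPM, and in E9.5 HE 0.473, 1.13 and 0 CPM. These 4 populations overlapped fully and summed to 16, 32, 33 and 36 counts for the gene. A library with 0 counts still allows a level of up to the worth of 3 counts, which was 0.188 CPM for the EC library and 0.143 CPM for the HE library of E8.5, and 0.125 CPM and 0.141 CPM for those of E9.5. Counting limits cover counting error only, because amplified reads are not independent molecules.

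Pro-HSC/HPC had 39.5, 39.4 and 50.1 CPM of Myb, far above every library of E9.5 EC and HE. At E10.5, EC had 0.602, 2.09 and 0.754 CPM and HE had 13.5, 4.18 and 5.49 CPM, which did not overlap. Pre-HSC I had 112, 193 and 183 CPM, and pre-HSC II had 221, 213 and 259 CPM, the highest of the 28 libraries. Ordered by mean, the populations were pre-HSC II (231 ± 24.4 CPM), pre-HSC I (163 ± 44.5), pro-HSC/HPC (43.0 ± 6.15), E10.5 HE (7.71 ± 5.03) and E10.5 EC (1.15 ± 0.818), then E9.5 HE, E9.5 EC, E8.5 HE and E8.5 EC at 0.212 to 0.536 CPM. The libraries of neighbours did not overlap from pre-HSC II down to E10.5 EC, and those of all lower neighbours did. Of all genes, 6.78% were higher without overlap in pre-HSC II than in pre-HSC I. The share was 8.59% for pre-HSC I over pro-HSC/HPC and 11.4% for E10.5 HE over EC. It was not computed for pro-HSC/HPC over E10.5 HE.

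**Figure D1:**
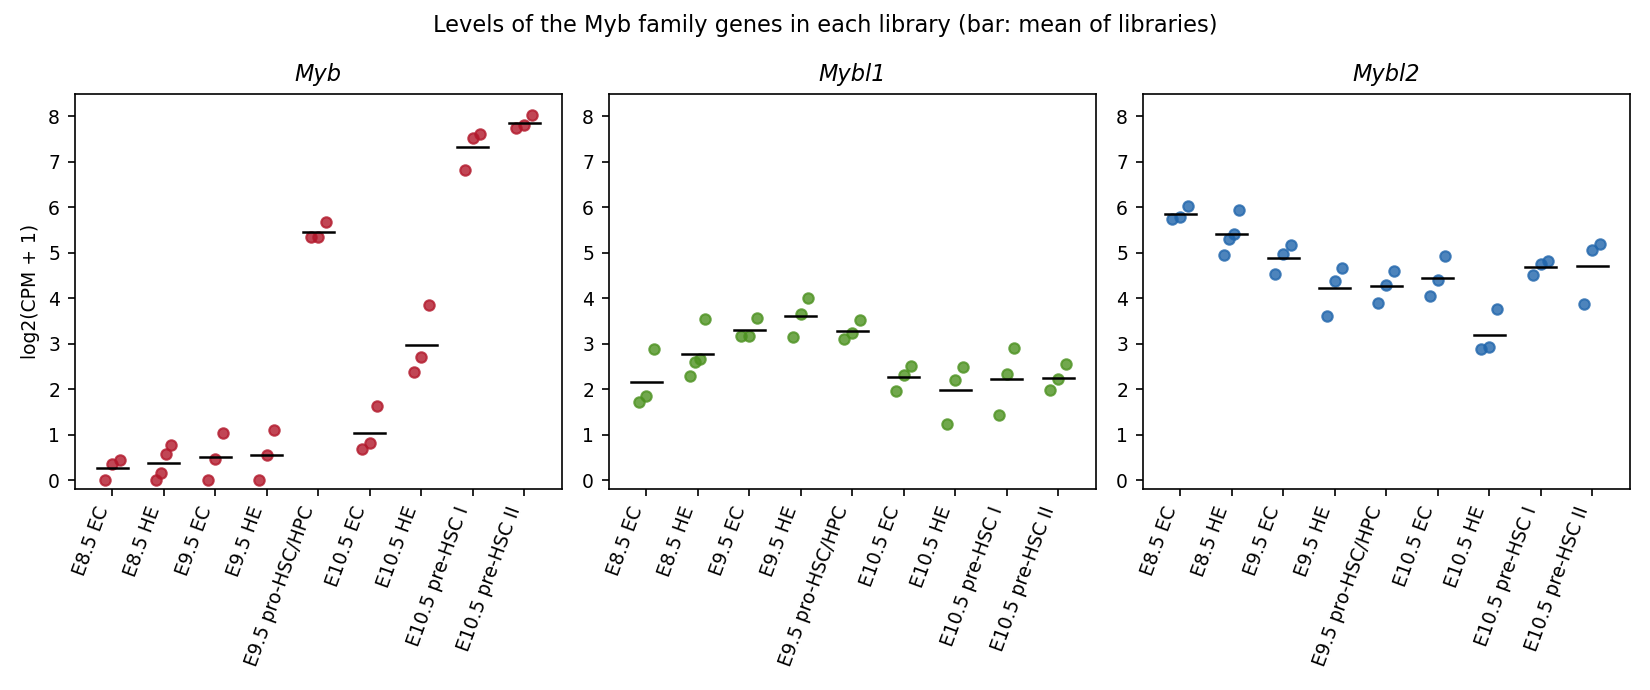
Level of Myb, Mybl1 and Mybl2 in each of the 28 libraries as log2(CPM + 1), 1 point per library, with a bar at the mean of each population. Myb lies near 0 in the 4 populations of EC and HE at E8.5 and E9.5 and highest in pre-HSC II (mean 231 CPM), Mybl1 stays between 1.36 and 15.1 CPM, and Mybl2 is highest in E8.5 EC (mean 57.0 CPM) and lowest in E10.5 HE (8.48 CPM).

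Of the 3 members only Myb was called in the step from E9.5 HE to pro-HSC/HPC, where 0.656% of all genes were called. Its mean was 80.3-fold higher in pro-HSC/HPC (log2 difference 6.29 ± 0.86 SE, edgeR quasi-likelihood adjusted p = 1.105e-04), and its libraries did not overlap, which held for 7.15% of all genes in that direction. Without the 2 libraries rich in hemoglobin reads the log2 difference was 6.19, on the single remaining library, which had 39.5 CPM. In bulk libraries, fewer cells expressing a gene and less RNA per cell cannot be told apart.

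The E10.5 step from HE to pre-HSC I raised Myb 21.1-fold on the means (4.39 ± 0.74, adjusted p = 4.241e-04; 4.30 without pre-HSC I replicate 3, adjusted p = 0.00188), and Mybl2 was called there too, in a comparison in which 6.88% of all genes were called and 11% were higher without overlap. Pre-HSC II and pre-HSC I did not differ in Myb at the threshold (0.51 ± 0.64, adjusted p = 0.946), although their libraries did not overlap (6.78% of all genes in that direction). None of the 3 members passed in that comparison at an unadjusted p under 0.05 or with DESeq2 or limma voom, against 4.42% of all genes called. The level in pre-HSC I was 3.78-fold that in pro-HSC/HPC, with no overlap between libraries (8.59% of all genes in that direction), and this missed the threshold (1.92 ± 0.66, adjusted p = 0.178; 1.45% of all genes called, 0.23% higher and 1.22% lower). The same difference was called by limma voom (2.04, adjusted p = 2.549e-05) and in a fit of those libraries alone (1.93, adjusted p = 0.0108). Without the 2 hemoglobin-rich libraries it was 2.04 and not called. The blood steps of E9.5 and E10.5 were compared directly, and the test of the difference between them found −1.90 ± 1.01 (adjusted p = 0.537, 0.0722% of all genes called, 0.0328% higher and 0.0394% lower), and −1.78 without the 2 hemoglobin-rich libraries.

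HE and EC could not be told apart in Myb at E8.5 and E9.5 and did not overlap at E10.5. At E8.5 the log2 difference was 0.51 ± 1.01 (adjusted p = 0.833) and at E9.5 it was 0.19 ± 0.91 (adjusted p = 1). No member was called on either day with edgeR, DESeq2 or limma voom, and none had an unadjusted p under 0.05, while 6.81% of all genes were called at E8.5 and 0.302% at E9.5. At E10.5 the level in HE was 6.72-fold that in EC (2.77 ± 0.74, adjusted p = 0.035), and Mybl2 was called in the opposite direction, with 3.48% of all genes called, 11.4% higher without overlap and 8.96% lower without overlap. DESeq2 gave 2.75 for Myb (adjusted p = 0.102), limma voom 2.70 (0.0969) and a fit of those 6 libraries 2.74 (0.0913). The call was also lost without EC replicate 1 (2.43), EC replicate 3 (2.54), HE replicate 1 (2.10) or HE replicate 3 (2.95). It was kept in the other 7 of 14 alternatives. The change of the HE minus EC difference from E8.5 to E10.5 was not called (2.26 ± 1.30, adjusted p = 0.455; 2.99% of all genes called, 0.879% higher and 2.11% lower).

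Within HE, Myb increased 14.4-fold on the means from E9.5 to E10.5 (3.82 ± 0.80, adjusted p = 0.00671), with no overlap between libraries (12.9% of all genes in that direction). It was the member called by edgeR in that comparison, in which 3.64% of all genes were called, 1.49% being higher. The tissue label changes between those 2 days, as said above. From E8.5 to E9.5 the difference was 0.69 ± 0.88 in HE (adjusted p = 0.698) and 1.01 ± 1.03 in EC (adjusted p = 0.526), and in EC from E9.5 to E10.5 it was 1.25 ± 0.85 (adjusted p = 0.574).

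Runx1, the factor that HE needs to form blood, was already present in E9.5 HE. Its mean there was 35.0 ± 3.67 CPM against 3.42 ± 0.323 CPM in E9.5 EC, at a time when no E9.5 HE library had more than 1.13 CPM of Myb. The sort gates are not given, and the part of sorting in this difference of Runx1 was not tested. In E10.5 HE, Runx1 stood at 45.0 ± 6.61 CPM and Myb at 7.71 ± 5.03 CPM. In pro-HSC/HPC, pre-HSC I and pre-HSC II the mean of Runx1 was 254, 225 and 249 CPM, a narrow range over which the mean of Myb went from 43.0 to 163 and 231 CPM. The flanking genes of Myb did not share its range. Ahi1, with 44501 bases between it and Myb, had population means from 10.6 to 27.5 CPM, and Hbs1l, 134995 bases away on the other side, had means from 102 to 194 CPM. The mean of Ahi1 nonetheless rose with Myb in both blood steps. It went from 19.6 CPM in E9.5 HE to 27.5 CPM in pro-HSC/HPC, and from 10.6 CPM in E10.5 HE to 20.2 CPM in pre-HSC I. Elsewhere Ahi1 did not follow Myb. It was lower in pre-HSC I than in pro-HSC/HPC, and its mean in pre-HSC II was 19.6 CPM, as in E9.5 HE. Hbs1l had 106 and 108 CPM in the first step and 121 and 102 CPM in the second.

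Mybl2 was present in every library and followed a different course, with its highest values at E8.5 and its lowest in E10.5 HE. E8.5 EC had 64.2, 54.4 and 52.4 CPM, and E8.5 HE had 41.7, 60.2, 29.9 and 38.6 CPM. At E9.5, EC had 35.0, 22.01 and 30.3 CPM, HE had 19.8, 11.1 and 24.5 CPM, and pro-HSC/HPC had 13.9, 18.6 and 23.3 CPM. E10.5 EC had 20.0, 29.2 and 15.4 CPM, HE had 12.5, 6.58 and 6.36 CPM, pre-HSC I had 21.9, 25.9 and 27.01 CPM, and pre-HSC II had 35.8, 13.5 and 32.2 CPM. By mean the order was E8.5 EC (57.0 ± 6.31 CPM), E8.5 HE (42.6 ± 12.8), E9.5 EC (29.1 ± 6.58), pre-HSC II (27.2 ± 11.9), pre-HSC I (24.9 ± 2.68), E10.5 EC (21.6 ± 7.03), pro-HSC/HPC (18.6 ± 4.66), E9.5 HE (18.5 ± 6.77) and E10.5 HE (8.48 ± 3.48). Each neighbour in that order overlapped the next.

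In hemogenic endothelium Mybl2 fell between E8.5 and E9.5 (log2 difference −1.21 ± 0.35, edgeR adjusted p = 0.0357), with no overlap between libraries, as 9.49% of all genes did in that direction. It was the member called there, in a comparison in which 6.54% of all genes were called. Mesenchyme and smooth muscle markers summed to 27.2 to 80.7 CPM in E8.5 HE and to 304 to 450 CPM in E9.5 HE. Endothelial markers were also higher at E9.5 than at E8.5, in HE and in EC, as given above. The part of either marker list in the E8.5 to E9.5 differences of Mybl2 and of the lists described below was not tested. The call rests on the full set of libraries: the fit of those 7 libraries alone gave −1.21 (adjusted p = 0.0701), and the call was lost without E8.5 HE replicate 1 (−1.20), 2 (−0.97) or 4 (−1.24), or without E9.5 HE replicate 1 (−1.25), 2 (−0.92) or 3 (−1.44). The next interval of HE, E9.5 to E10.5, gave −1.12 ± 0.37 (adjusted p = 0.0909), and without E10.5 HE replicate 1, the highest of that group, −1.50 (adjusted p = 0.0427). In EC the difference from E8.5 to E9.5 was −0.97 ± 0.36 with no overlap (17.5% of all genes in that direction), short of the threshold (adjusted p = 0.0595). That comparison had 19.7% of all genes called, no member by edgeR (Mybl1 and Mybl2 at an unadjusted p under 0.05), Mybl2 by DESeq2, and Mybl1 and Mybl2 by limma voom. In EC from E9.5 to E10.5 Mybl2 gave −0.43 ± 0.36 (adjusted p = 0.670).

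At E10.5, Mybl2 was lower in HE than in EC by a log2 difference of −1.34 ± 0.37 (adjusted p = 0.0398), and higher in pre-HSC I than in HE by 1.55 ± 0.37 (adjusted p = 0.00932), a ratio of means of 2.94. In both comparisons the libraries did not overlap, as held for 8.96% of all genes in the direction of the first and 11% in that of the second. The 2 tests share the 3 HE libraries, so they are not independent of each other. Mesenchyme and smooth muscle markers (8 genes, none at 0 in any population) summed to 20.2 to 242 CPM in E10.5 EC, 212 to 777 CPM in HE and 139 to 343 CPM in pre-HSC I, and cardiac markers (7 genes, Myh7 and Nkx2-5 at 0 in HE) to 9.81 to 10.6 CPM, 23.6 to 171 CPM and 14.0 to 30.1 CPM. Their part in the values of Mybl2 and of the lists described below was not tested. Against EC the call was lost with limma voom (−1.33, adjusted p = 0.106), in the fit of the 6 libraries (−1.35, 0.112), and without EC replicate 1 (−1.40), EC replicate 2 (−1.06), HE replicate 2 (−1.19) or HE replicate 3 (−1.18). It was kept in the other 8 of 14 alternatives. The pre-HSC I call was lost without HE replicate 2 (1.40, adjusted p = 0.0612) or HE replicate 3 (1.40, adjusted p = 0.0637).

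No such rise was seen in the E9.5 step to pro-HSC/HPC, where Mybl2 differed by 0.011 ± 0.36 (adjusted p = 1). Without the 2 libraries rich in hemoglobin reads that value was −0.39. The difference between the E10.5 and E9.5 steps was 1.54 ± 0.51 and did not pass the threshold (adjusted p = 0.254), nor did it without those libraries (1.96). Mybl2 in pre-HSC II and pre-HSC I differed by 0.12 ± 0.36 (adjusted p = 1).

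Mybl1 was low in all libraries and was called in none of the 13 tests by edgeR, with 4 at an unadjusted p under 0.05, 1 called by DESeq2 and 2 by limma voom. In E8.5 EC it had 2.30, 2.59 and 6.33 CPM, and in E8.5 HE 3.88, 5.30, 10.7 and 5.06 CPM. The E9.5 values were 7.94, 8.03 and 10.9 CPM in EC, 7.84, 11.7 and 15.1 CPM in HE, and 10.4, 8.42 and 7.65 CPM in pro-HSC/HPC. At E10.5 the libraries had 4.00, 4.70 and 2.91 CPM in EC, 3.60, 4.62 and 1.36 CPM in HE, 1.72, 6.52 and 4.05 CPM in pre-HSC I, and 2.95, 4.84 and 3.64 CPM in pre-HSC II.

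The ordered means of Mybl1 ran from 11.5 ± 3.63 CPM in E9.5 HE through 8.95 ± 1.68 in E9.5 EC, 8.83 ± 1.42 in pro-HSC/HPC and 6.23 ± 3.04 in E8.5 HE to between 3.19 and 4.10 CPM in the other 5 populations, each neighbour overlapping the next. The largest difference was from E9.5 HE to E10.5 HE, −1.85 ± 0.54, with no overlap between libraries (12.3% of all genes in that direction) and just short of the threshold with edgeR (adjusted p = 0.055). DESeq2 called it (−1.81, adjusted p = 0.0147), as did limma voom (−2.18, adjusted p = 0.00834). In EC it was 1.26 ± 0.54 higher at E9.5 than at E8.5 (adjusted p = 0.0971; no overlap, as for 19.5% of all genes in that direction), which limma voom called (1.74, adjusted p = 0.0046) and which also passed without E8.5 EC replicate 3 (1.88, adjusted p = 0.0277). The E10.5 minus E9.5 difference in EC was −1.21 ± 0.53 (adjusted p = 0.337), without overlap (10.4% of all genes in that direction). In that comparison edgeR, DESeq2 and limma voom called 0 members, Mybl1 had an unadjusted p under 0.05, and 0.761% of all genes were called, 0.308% higher and 0.453% lower. Pre-HSC I minus pro-HSC/HPC was −1.11 ± 0.53 (adjusted p = 0.400), again without overlap (9.88%), and −1.34 without the 2 hemoglobin-rich libraries. Within a day, the differences of Mybl1 between populations ran from −0.39 to 0.74 in log2, with unadjusted p of 0.153 or more.

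**Figure D2:**
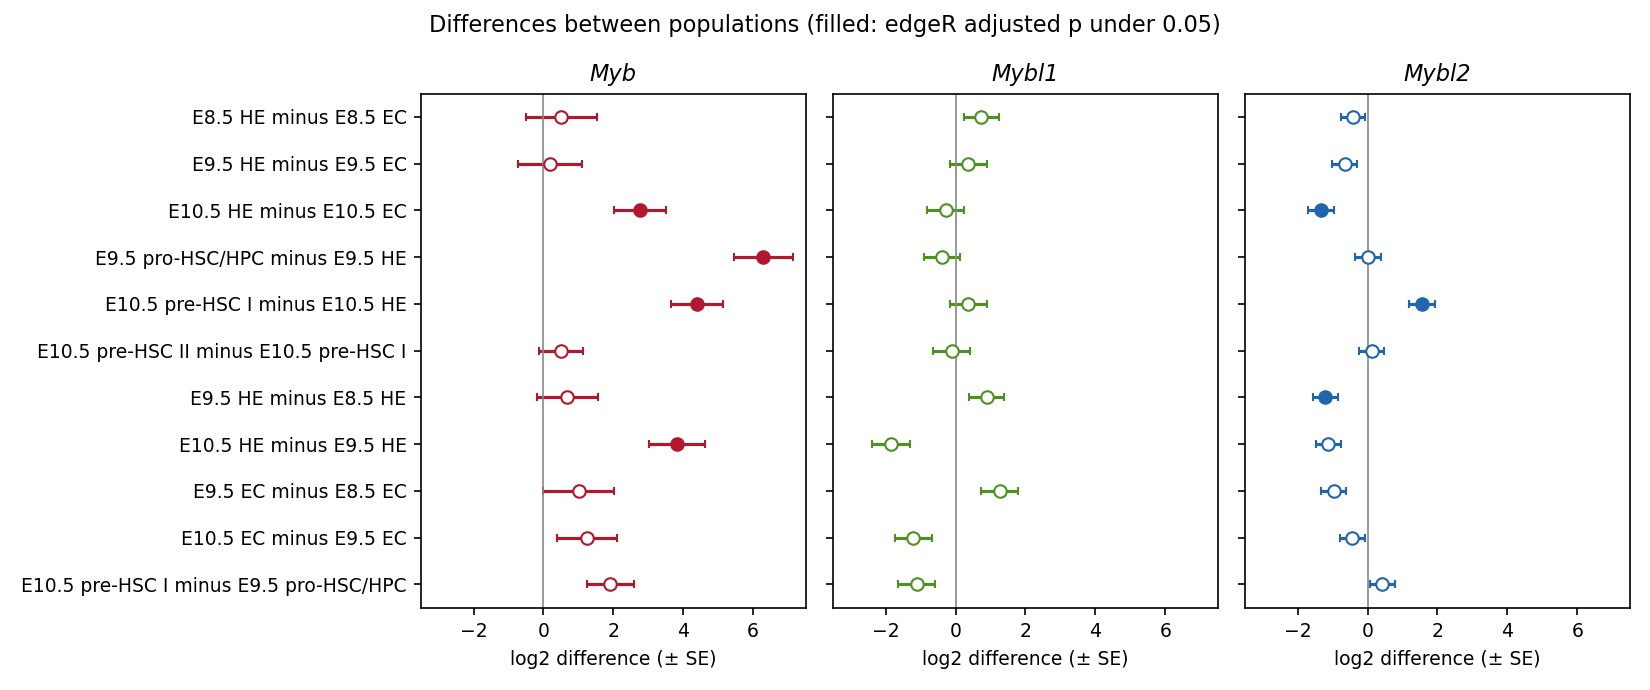
Log2 differences of the 3 members in the 11 comparisons of populations, with bars of 1 SE and filled points where the edgeR adjusted p was under 0.05. Myb has 4 filled points, all above 0 (2.77 to 6.29), Mybl2 has 3 (−1.34, −1.21 and 1.55), and Mybl1 has none.

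Per kilobase of exonic length, which corrects for length only, the leading member of the family changed along the series. Other differences between genes in amplification and counting were not checked, so shares between members are approximate. Mybl2 made up 94.9% ± 2.78 of the summed CPM per kilobase of the 3 genes in EC and 88.8% ± 6.73 in HE at E8.5, and 80.0% ± 4.82 and 65.9% ± 11.6 in the same populations at E9.5. Mybl1 took 31.7% ± 9.55 of the sum in E9.5 HE, its highest share. In pro-HSC/HPC Myb held 62.6% ± 1.68 and Mybl2 27.4% ± 3.76, and in the library poor in hemoglobin reads 64.1% and 23.1%. At E10.5 the share of Myb was 4.14% ± 1.70 in EC, 39.2% ± 9.12 in HE, 84.7% ± 1.94 in pre-HSC I and 88.5% ± 3.69 in the pre-HSC II libraries. E10.5 HE was thus mixed, with Mybl2 at 46.9% ± 2.94 and overlapping shares of Myb (29.0 to 46.5%) and Mybl2 (44.0 to 49.9%).

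The summed level of the family was lowest in E10.5 HE, at 4.97 ± 2.34 CPM per kilobase. It stood at 16.2 ± 1.45 in E8.5 EC and 18.2 ± 2.55 in pro-HSC/HPC, with different members behind nearly the same sum. It reached 50.6 ± 12.9 in pre-HSC I and 69.4 ± 8.47 in the pre-HSC II libraries.

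**Figure D3:**
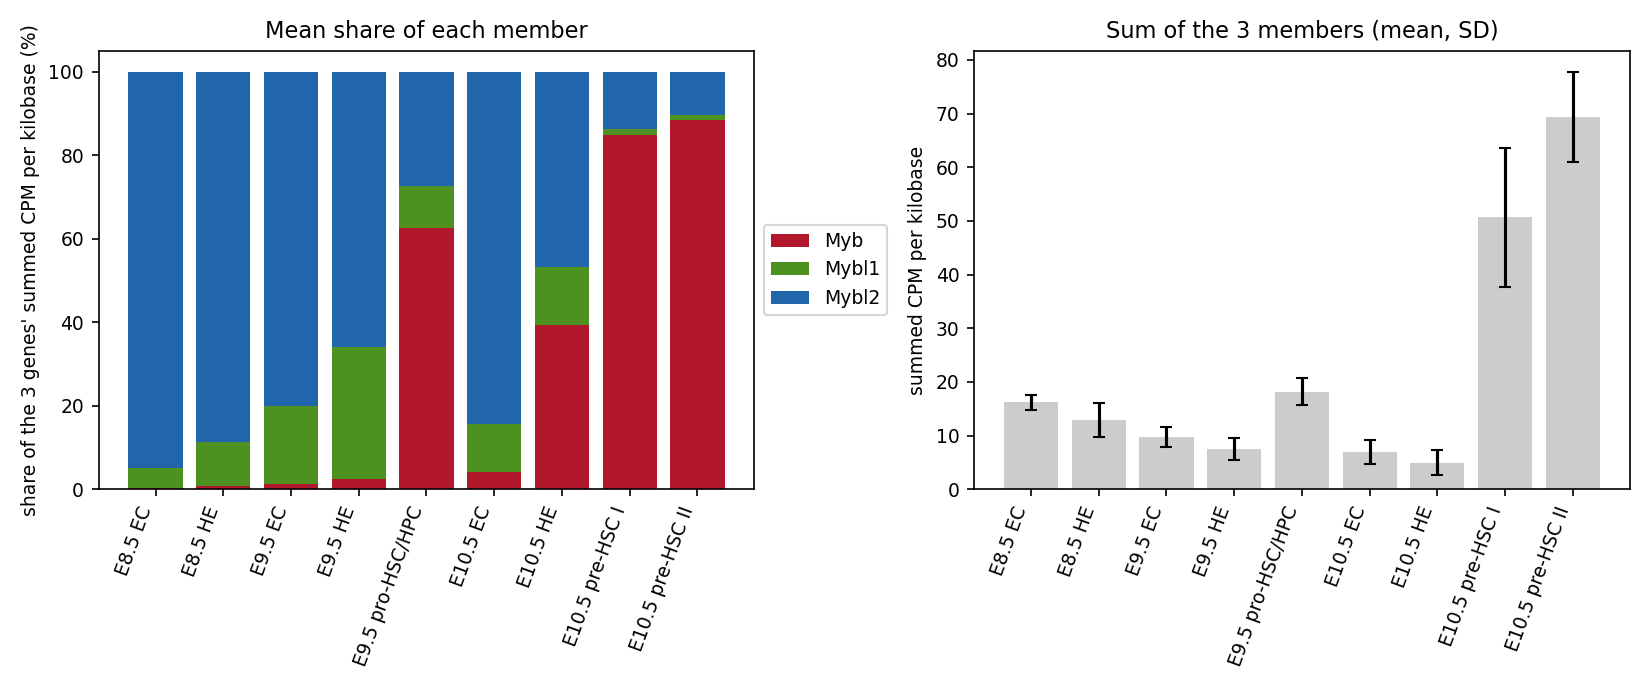
Left, mean share of Myb, Mybl1 and Mybl2 in their summed CPM per kilobase in each population (%). Right, the sum itself in CPM per kilobase, as mean with bars of 1 SD over libraries: Mybl2 leads in EC and in early HE, Myb in pro-HSC/HPC, pre-HSC I and pre-HSC II, and the sum runs from 4.97 in E10.5 HE to 69.4 in pre-HSC II.

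Myb and Mybl2 both rose from E10.5 HE to pre-HSC I, and their promoters are shown so that their sequence can be set side by side. Promoter sequences were found for 2 of the 3 members, Myb and Mybl2, in RefSeq on build GRCm38.p6. The 250 bases upstream of the annotated start are printed 5′ to 3′ on the strand of the gene, at chr10:21160985-21161234 (minus strand) for Myb and chr2:163054385-163054634 (plus strand) for Mybl2. Capitals mark the longest runs that both promoters share, 2 runs of 10 bases.
Myb: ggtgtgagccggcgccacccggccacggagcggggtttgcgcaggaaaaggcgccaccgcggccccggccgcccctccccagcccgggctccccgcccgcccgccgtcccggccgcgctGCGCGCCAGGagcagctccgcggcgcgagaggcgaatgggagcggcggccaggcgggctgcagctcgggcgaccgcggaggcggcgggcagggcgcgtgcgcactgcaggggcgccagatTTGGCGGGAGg
Mybl2: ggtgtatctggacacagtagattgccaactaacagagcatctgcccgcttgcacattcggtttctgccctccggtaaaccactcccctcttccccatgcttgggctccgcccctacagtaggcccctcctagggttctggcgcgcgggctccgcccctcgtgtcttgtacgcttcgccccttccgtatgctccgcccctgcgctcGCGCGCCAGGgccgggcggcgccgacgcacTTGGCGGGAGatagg
The first run, GCGCGCCAGG, lies at −131 to −122 in Myb and at −45 to −36 in Mybl2, counted from the last base before the start as −1. It occurs in 65 of 32851 mouse promoters of that length (0.198%). The second, TTGGCGGGAG, lies close to the start in both genes, at −11 to −2 in Myb and −15 to −6 in Mybl2, and occurs in 28 promoters (0.0852%). GC content is 81.2% for Myb and 65.6% for Mybl2, against a median of 52.4% over all promoters. Both runs were picked because these promoters share them, so the percentages do not tell whether sharing them is unusual. How long a run GC-rich windows usually share was not computed.

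Inside the second run is GGCGGGA, the core of the site bound by E2F factors, a motif chosen for the search after these promoters had been read. It matched once in each promoter, and on either strand in 9.75% of all promoters. The CHR element through which MuvB binds its target genes (TTTGAA or TTCGAA, either strand) has no match in either window and one in 17.1% of all promoters. The RUNX motif (TGTGGT or TGCGGT, 18.6% of promoters), the GATA motif (AGATAA or TGATAA, 16.6%) and the CCAAT box (CCAAT, 33.8%) had no match either, which says only that these letters are not in these windows. The Myb motif itself (CAACNG or TAACNG, 43.1% of promoters) matched once in Mybl2, at −221 to −216, and not in Myb. GC boxes (GGGCGG, 32.7% of promoters) matched 3 times in Myb and 4 times in Mybl2.

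The complex in which B-Myb works was next described over 13 genes of MuvB and DREAM, and 0 or 1 of them passed with edgeR in the 3 comparisons in which Mybl2 was called. Among the MuvB core genes, Lin9 had a mean of 29.8 CPM in E10.5 HE and 30.4 CPM in EC (log2 difference −0.03), and Rbbp4 had 215 and 225 CPM. Foxm1, the factor that follows B-Myb on mitotic promoters, had 20.6 ± 15.5 CPM in E10.5 HE, 28.5 ± 2.90 CPM in EC and 34.5 ± 16.5 CPM in pre-HSC I, none of which differed at the threshold (pre-HSC I minus HE 0.74 ± 0.40, adjusted p = 0.289). In E10.5 HE against EC, 1 of the 13 genes was lower and 0 were higher, against 1.37% of all genes lower and 2.11% higher: E2f5, a repressive E2F, fell by 0.92 on the log2 scale, a call lost without any 1 of the 6 libraries, with DESeq2 size factors, without the filter and in the fit of only those libraries. In pre-HSC I against HE, Tfdp1, the partner that E2Fs need to bind DNA, was the single gene called (log2 0.70 ± 0.21, adjusted p = 0.038), with 3.08% of all genes higher and 3.80% lower. The count was 5 by limma voom, 2 without pre-HSC I replicate 1, and 0 without the filter, in the fit of only those libraries, or without HE replicate 1, HE replicate 3, pre-HSC I replicate 2 or pre-HSC I replicate 3. The median of the 13 was −0.03 in the first comparison and 0.40 in the second, beside −0.005 and 0.012 over all genes tested. In HE from E8.5 to E9.5 none of the 13 was called by edgeR (2 lower at an unadjusted p under 0.05, 1 lower by DESeq2 and by limma voom), with 2.97% of all genes higher and 3.58% lower.

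Genes of DNA synthesis (14 S phase genes, all tested) had log2 differences on the same side as Mybl2 in the 3 comparisons where it was called. In HE from E8.5 to E9.5, 7 of the 14 fell, against 3.58% of all genes lower. All 14 log2 differences were below 0, with a median of −0.67 beside 0.015 over all genes. Mcm5, a subunit of the replicative helicase, had a mean of 250.4 CPM in E8.5 HE and 125 CPM in E9.5 HE (−0.9998 ± 0.213, adjusted p = 0.0063), and Gins2, which activates that helicase, gave −1.34 ± 0.32. The count was 0 without E9.5 HE replicate 3, 2 without E9.5 HE replicate 1 and 3 without E8.5 HE replicate 1. It was 4 without the filter and 3 in the fit of only those libraries.

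In E10.5 HE against EC, 3 of the 14 were lower (Mcm3 −0.62, Mcm4 −0.72 and Mcm5 −0.85), against 1.37% of all genes lower. Again all 14 differences lay below 0, median −0.60 beside −0.005. No S phase gene was called there without EC replicate 1, EC replicate 2, HE replicate 2 or HE replicate 3, and 1 was without EC replicate 3. DESeq2 called 6, a filter at 10 CPM in 3 libraries gave 5, and the fit without a filter and that of only those libraries gave 1 each. From HE to pre-HSC I, 5 of the 14 rose, against 3.08% of all genes higher. All 14 differences lay above 0, median 0.71 beside 0.012. Mcm2 (0.88), Mcm3 (0.74), Mcm5 (0.79) and Mcm6 (0.74), all helicase subunits, were among the 5. Without HE replicate 2 the count was 1, without pre-HSC I replicate 2 or 3 it was 2, and without HE replicate 3 or pre-HSC I replicate 1 it was 3. DESeq2 and the filter at 10 CPM called 8, the fit without a filter 3 and that of only those libraries 1. These 2 comparisons share the HE libraries. In the step to pro-HSC/HPC none of the 14 was called (0 at an unadjusted p under 0.05, and 0 by DESeq2 and limma voom; 0.505% of all genes higher and 0.151% lower), with a median of 0.19 beside 0.023.

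Mitotic genes that depend on MuvB and B-Myb (17 genes, all tested) had 4, 0 and 1 genes called in the direction of Mybl2 in these 3 comparisons. In the same directions 3.58%, 1.37% and 3.08% of all genes were called. From E8.5 HE to E9.5 HE, 4 of the 17 fell: the kinase Plk1 (−1.46), the anaphase activator Cdc20 (−1.40), cyclin Ccnb1 (−1.03) and the kinesin Kif20a (−1.62), with a median of −0.40 over the list. The count was 1 without E8.5 HE replicate 1 or E9.5 HE replicate 3, and 2 without E9.5 HE replicate 1 or in the fit of only those libraries, and 14 of the 17 differences lay below 0. In E10.5 HE against EC none was called by edgeR, DESeq2 or limma voom, 1 was lower at an unadjusted p under 0.05, and the median was −0.33. From HE to pre-HSC I, Ccna2, the cyclin of S and G2 phase, rose by 1.04 ± 0.26 (adjusted p = 0.0137) and the median of the 17 was 0.0099, beside 0.012 over all genes. That call was lost without HE replicate 2, HE replicate 3, pre-HSC I replicate 2 or pre-HSC I replicate 3, and without pre-HSC I replicate 1 the count of mitotic genes that rose was 2, as it was with DESeq2, limma voom and the filter at 10 CPM. Ccna2 had also been the gene of the list that fell in HE from E9.5 to E10.5 (−1.09 ± 0.26, adjusted p = 0.0176; 2.15% of all genes lower), lost without E9.5 HE replicate 1 or 3 or E10.5 HE replicate 2 or 3. Limma voom called 2 lower there.

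**Figure D4:**
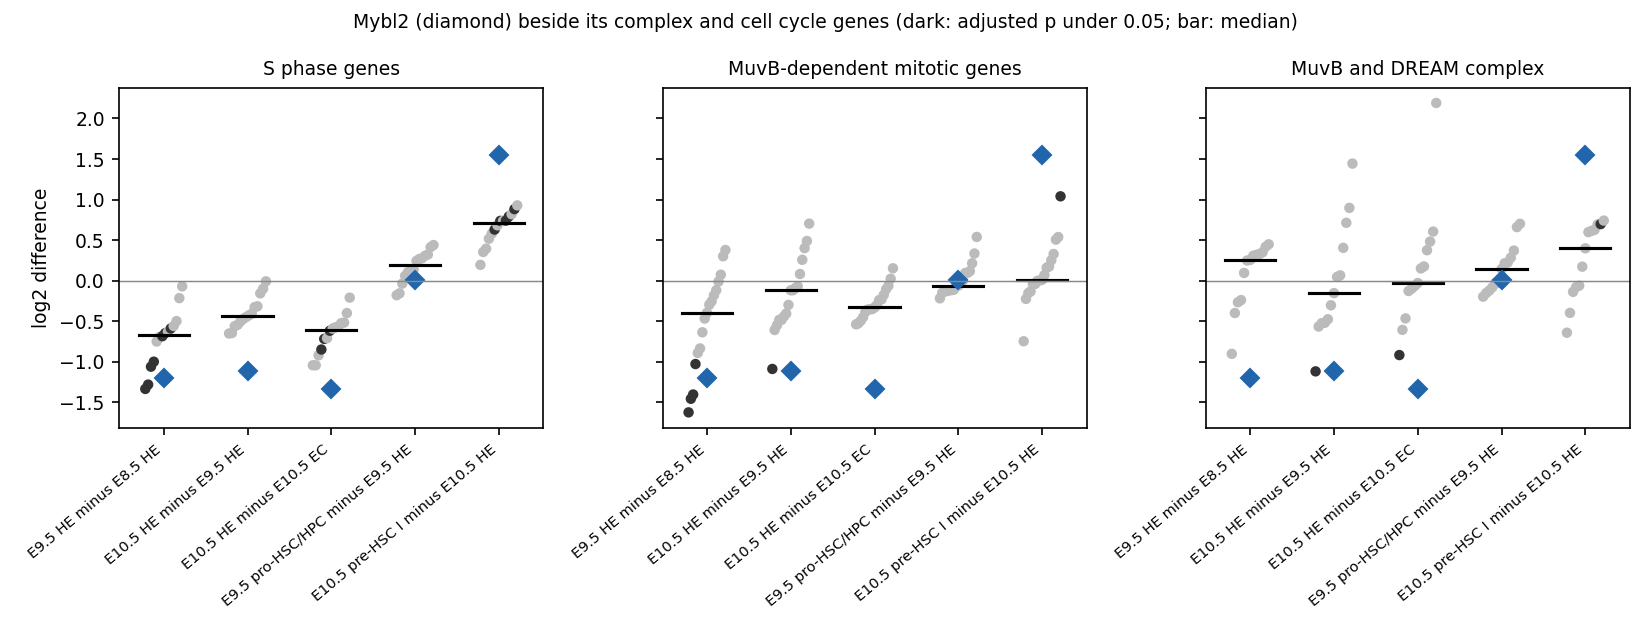
Log2 differences of Mybl2 (diamond) beside the genes of 3 lists in 5 comparisons, dark points at an edgeR adjusted p under 0.05, bars at the median of each list. In pre-HSC I minus E10.5 HE the S phase genes centre on 0.71 and the mitotic genes on 0.0099, with Mybl2 at 1.55.

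Across the 28 libraries, log2(CPM + 1) of Mybl2 had a Pearson correlation of 0.77 with the mean of the S phase genes and of 0.69 with that of the mitotic genes. The libraries share populations, scaling and depth, so this is a description of differences between populations. Once the mean of its population was taken from each library, the values were −0.08 and −0.26.

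**Figure D5:**
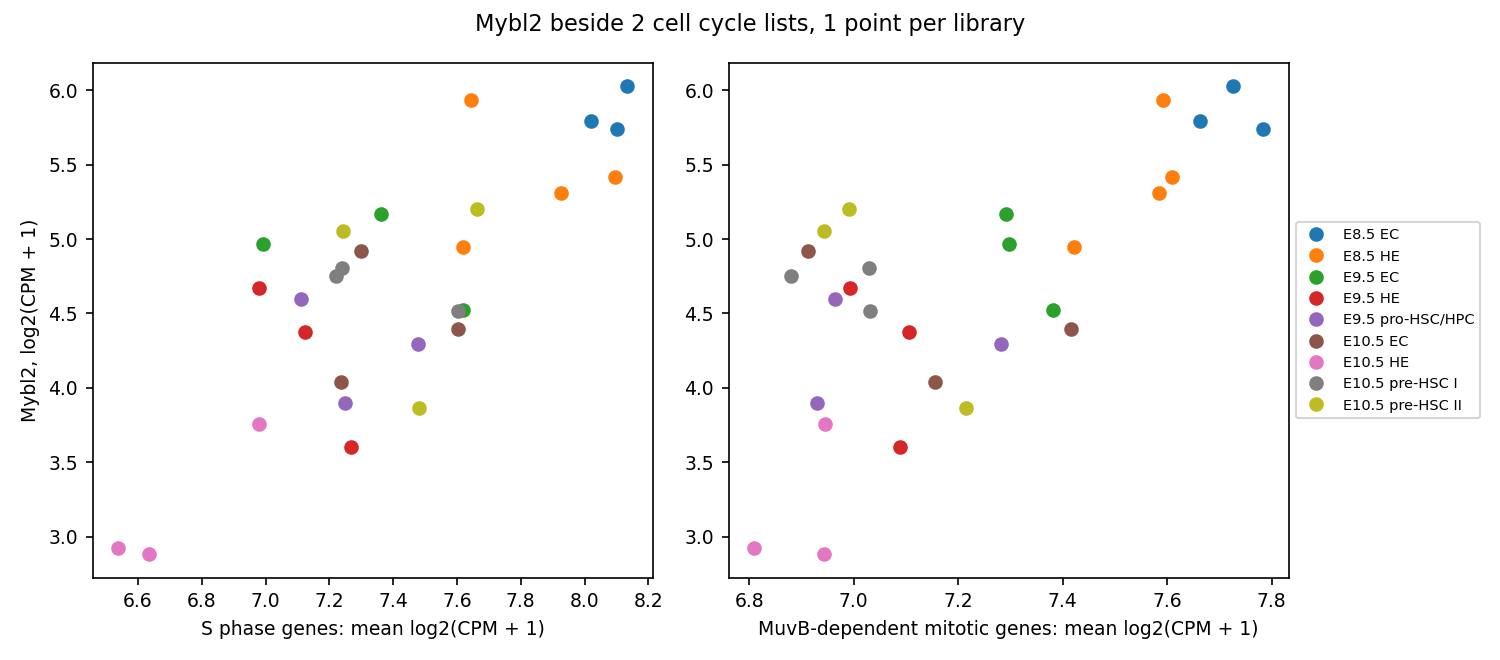
Mybl2 as log2(CPM + 1) against the mean log2(CPM + 1) of the 14 S phase genes (left) and the 17 mitotic genes (right), 1 point per library, coloured by population. Over all libraries the correlation is 0.77 on the left and 0.69 on the right. After taking out population means it is −0.08 and −0.26.

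The E2F activators and RB genes (7 genes) had 0 called members in E10.5 HE against EC, in pre-HSC I against HE and in HE from E8.5 to E9.5 by edgeR. At an unadjusted p under 0.05 these comparisons had 1, 4 and 1 higher and 0 lower, and DESeq2 called 0, 1 and 0 and limma voom 0, 2 and 1, all higher. From E8.5 EC to E9.5 EC the activator E2f2 rose from a mean of 0.844 to 6.59 CPM (2.92 ± 0.76, adjusted p = 0.00775), while cyclin Ccne2 fell from 96.8 to 43.8 CPM (−1.14 ± 0.36, adjusted p = 0.0268). In those endothelial libraries 8 of the 14 S phase genes fell, 3 of the 17 mitotic genes fell and 1 rose, with 9.56% of all genes lower and 10.1% higher. The S phase count was 3 without E9.5 EC replicate 3 and 5 without E9.5 EC replicate 1. Ccne2 was not called without replicate 1 or 3 of either EC group, and the mitotic gene that rose, Ccna2 (0.87 ± 0.26), was not called without E8.5 EC replicate 1 or 2 or E9.5 EC replicate 3. In the fit of only those libraries E2f2 was not called, and limma voom called 8 mitotic genes lower and 2 higher.

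c-Myb acts with coactivators and with other blood factors, and 12 such genes were described. The coactivator genes Crebbp and Ep300 were called in none of the 11 comparisons. From E9.5 HE to pro-HSC/HPC, Cebpb, a myeloid partner of c-Myb, went from 2.18 ± 0.385 to 30.6 ± 3.55 CPM (3.81 ± 0.78, adjusted p = 0.0115) and Gfi1, a repressor needed by blood stem cells, from 2.71 ± 1.17 to 39.7 ± 11.02 CPM (3.87 ± 0.82, adjusted p = 0.0177), while Ets1 fell by 1.08. These were 2 higher and 1 lower of 12, with 0.505% of all genes higher and 0.151% lower. Without the 2 libraries rich in hemoglobin reads 0 were called in either direction. Leaving out any 1 of the 3 HE libraries also left 0 higher, and leaving out pro-HSC/HPC replicate 1 or 3 left 1, and Ets1 was not called without HE replicate 2.

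From E10.5 HE to pre-HSC I, Cebpb rose by 2.58 ± 0.74 (adjusted p = 0.0311) and Psip1, a subunit that ties Men1 and Kmt2a to chromatin, by 0.93 ± 0.27 (adjusted p = 0.0389). In that step 3.08% of all genes were higher and 3.8% lower. Ets1 fell by 1.36 there and by a further 1.52 from pre-HSC I to pre-HSC II, where 4.28% of all genes were lower and 0.138% higher. The 2 rises were reduced to 1 without pre-HSC I replicate 1 and to 0 without HE replicate 2, HE replicate 3, pre-HSC I replicate 2 or pre-HSC I replicate 3, and were 4 with limma voom or without the filter. Limma voom and the fit of only the libraries compared called 2 lower from pre-HSC I to pre-HSC II. Gfi1 separated E10.5 HE from EC, as Myb did: HE libraries had a mean of 12.01 ± 4.93 CPM and EC libraries 2 counts in all, a ratio of 379 with a 95% counting interval of 105 to 3137.

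Genes reported as c-Myb targets in adult blood cells and cell lines split into those that moved with Myb and those that did not (16 listed, of which 13 passed the filter on low counts). In the step from E10.5 HE to pre-HSC I, 3 of the 13 rose and 2 fell, against 3.08% of all genes higher and 3.8% lower. The median of the 13 was 0.54 beside 0.012 over all genes. Kit, the stem cell factor receptor, rose from 50.9 ± 13.6 to 244 ± 90.2 CPM (2.26 ± 0.37, adjusted p = 3.072e-04). Mpo and Prtn3, proteins of myeloid granules, rose from 1.47 ± 1.12 to 60.8 ± 19.5 CPM and from 0.160 ± 0.0462 to 37.4 ± 15.5 CPM. Cd34, a surface protein of endothelium and early progenitors, fell by 1.03 on the log2 scale. The 3 rises were called without each library in turn. The falls were 1 without HE replicate 1 or pre-HSC I replicate 1, and 0 without pre-HSC I replicate 2 or 3.

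In the E9.5 step to pro-HSC/HPC, with 0.505% of all genes higher, the 1 target gene called was Prtn3. It had 484 counts in pro-HSC/HPC against 2 in E9.5 HE, a ratio of 204 with a 95% counting interval of 56.1 to 1689. DESeq2, the fit without a filter and that of only those libraries called 2. In the pro-HSC/HPC library left without the 2 hemoglobin-rich ones, the only one of that group in the fit, it was also called, with the spread taken from the other groups. Kit, by contrast, had 123 ± 1.91 CPM in pro-HSC/HPC and 72.4 ± 19.5 CPM in E9.5 HE and was not called. The most abundant myeloid granule gene of the list, Mpo, went on to 236 ± 40.2 CPM in pre-HSC II without passing against pre-HSC I, while Prtn3 rose there to 129 ± 29.5 CPM (1.79 ± 0.47, adjusted p = 0.0239), a call lost without pre-HSC I replicate 2 or 3 or pre-HSC II replicate 1 or 2. Gata3 fell by 2.06 in the same step, in which 0.138% of all genes were higher and 4.28% lower. In E10.5 HE against EC, Gata3 was higher (2.11 ± 0.38, adjusted p = 0.0012) and Myc lower (−1.57 ± 0.44, adjusted p = 0.0449), the latter not called when any 1 of the 6 libraries was left out. Counts there were 2 higher with DESeq2 and limma voom, and 3 and 4 lower. By edgeR 2.11% of all genes were higher and 1.37% lower. At E8.5, where Myb was near 0 in both populations, 2 target genes were higher in HE (Cd34 1.22, Gata3 1.74) and 3 lower (Myc −1.73 among them), with 5.08% of all genes higher and 1.73% lower. None of these 5 was called in the fit of only those libraries.

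The marker list for granulocytes and macrophages, which holds Mpo and Prtn3 as well, summed to 5.70 to 14.5 CPM in E10.5 HE with Elane and Ctsg at 0, to 138 to 270.3 CPM in pre-HSC I and to 541 to 766 CPM in the pre-HSC II libraries. Its part in the values of the target list was not tested. The lymphoid list summed to 32.9 to 54.8 CPM in pre-HSC II with Cd3e and Dntt at 0, and the erythroid list to 17.8 to 19.1 CPM there, the population with the most Myb. The megakaryocyte and platelet list (9 genes) summed to 506 to 718 CPM in pre-HSC II. It summed to 34.1 to 54.2 CPM in E10.5 HE, 305 to 454 CPM in pre-HSC I and 136 to 811 CPM in pro-HSC/HPC.

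Proteins that modify c-Myb or set its turnover (12 genes) were mostly uncalled. Mybbp1a, which binds the leucine zipper of c-Myb, rose from 94.6 to 228 CPM between E10.5 HE and pre-HSC I (1.27 ± 0.30, adjusted p = 0.00839), and the corepressor Ski fell by 1.19 from pre-HSC I to pre-HSC II. The first call was lost without pre-HSC I replicate 2 and the second without pre-HSC II replicate 2 or in the fit of only the libraries compared. The ubiquitin ligase gene Fbxw7, the kinases Hipk2 and Nlk and the SUMO ligases Pias1 and Pias3 were called in none of the 11 comparisons. At E8.5 the cyclophilin gene Ppid was lower in HE than in EC (log2 difference −0.92), and was not called without E8.5 EC replicate 3 or E8.5 HE replicate 2 or 3, or in the fit of only those libraries.

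Genes that A-Myb activates in meiosis were close to absent, in libraries where Mybl1 itself was at 1.36 to 15.1 CPM. Of 12 listed, 7 passed the filter. The piRNA factor Piwil1 had its highest population mean at 0.120 CPM, Piwil2 at 0.306 CPM, Mael at 0.503 CPM and the germ cell cyclin Ccna1 at 0.0389 CPM. The germ cell helicase Ddx4 reached 3.57 CPM in pre-HSC II and the meiotic axis gene Sycp3 2.23 CPM in pre-HSC I. Cxcr4, the chemokine receptor, was the gene of this list called in any comparison, and it is widely expressed outside the germ line. It was 2.39 ± 0.60 higher in E10.5 HE than in EC (means 35.7 and 6.83 CPM, adjusted p = 0.0224), lower in pre-HSC I than in HE (−1.97 ± 0.59) and in pre-HSC II than in pre-HSC I (−3.15 ± 0.63, adjusted p = 0.00175), and 2.25 higher in E9.5 HE than in E8.5 HE. The first of these was lost without EC replicate 1 or 3 or HE replicate 2 or 3, the second without any 1 of the 6 libraries, and the last without E8.5 HE replicate 1 or E9.5 HE replicate 1.

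Other genes with Myb-like or SANT domains, which are relatives by fold and not members of the family (13 genes, all tested), had medians between −0.11 and 0.13 in the 11 comparisons. Dnajc2, a ribosome-associated chaperone, gave a log2 difference of −0.86 in E10.5 HE against E9.5 HE and was higher in pre-HSC I than in E10.5 HE by 0.90 ± 0.24 (adjusted p = 0.0191). The first call was lost without any 1 of its 6 libraries, with DESeq2 size factors and without the filter, and the second in the fit of only those libraries and without any of them except pre-HSC I replicate 1. Rcor1, of the CoREST repressor, and Tada2a, of the Ada2a histone acetylase complex, were lower in E8.5 HE than in EC, with 1.73% of all genes lower. Their log2 differences were −0.73 and −0.95. Of these 2 calls, 1 was left without E8.5 EC replicate 1 or 2 or E8.5 HE replicate 1, 3 or 4, or without the filter. In the fit of only those libraries 0 were left.

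Patterns most like each member were searched among 9240 genes by the Pearson correlation of mean log2(CPM + 1) over the 9 populations. For Myb these were Lyz2 (0.995), which encodes lysozyme and may share reads with its near copy Lyz1, Gp9 (0.993), a platelet glycoprotein, Mctp1 (0.993), Nfe2 (0.992), a factor of erythroid cells and megakaryocytes, and Sla (0.990). Nfe2 had 0.0303 CPM in E9.5 HE, 12.9 CPM in pro-HSC/HPC, 53.5 CPM in pre-HSC I and 71.5 CPM in the pre-HSC II libraries. Mybl2 was closest to Pgd (0.987), of the pentose phosphate pathway, Nufip1, Exosc8, Mars and Ints1, and Pgd ran from 102 ± 23.9 CPM in E8.5 EC to 47.6 ± 20.9 CPM in E10.5 HE. For Mybl1 the closest were the calcium pump Atp2a2 (0.965), Pitpna, Chtf8, Foxk2 and Tmed2. Atp2a2 had 197 ± 25.6 CPM in E9.5 HE and 114 to 123 CPM in E8.5 EC and the 4 E10.5 populations. With 9 points taken from 28 libraries these are descriptions, and which genes come first depends on the measure: of each set of 5, 3 remained for Myb, 0 for Mybl1 and 1 for Mybl2 when the correlation was taken over the 28 libraries, and 0, 1 and 0 with Spearman over the 9 means.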

How the data were processed

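Polyadenylated RNA from 100 sorted cells per library was, per the labels, amplified with a SMARTer kit for low input. The authors deposited 1 table of whole-number counts per gene for the 28 libraries on mm9. The submitters' processing notes list TopHat, SAMtools, Subread and featureCounts 1.6.2. Not given in the sources used here were the strand setting, the treatment of multiply mapped reads, the annotation release and the sort gates. Without a stated strand setting, overlapping genes can share counts.

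The counts were fitted as deposited with edgeR 4.0.16 (R 4.3.3): filterByExpr with a minimum count of 10 kept 15238 of 24015 genes, libraries were scaled by TMM, and a quasi-likelihood fit with 1 coefficient for each of 9 populations used all 28 libraries. The 11 comparisons and 2 differences of differences were tested with Benjamini-Hochberg adjustment over all genes tested, and a gene is called at an adjusted p under 0.05. Log2 differences and their SE come from that fit, and CPM use the TMM-scaled totals. DESeq2 1.42.0, limma 3.58.1 (voom with quality weights), other filters and scalings, fits of only the libraries compared, and each library left out in turn were alternatives. Replicate libraries differed by more than counting noise, so none was merged.

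The members and lists were chosen with earlier results of these data known. From each list, up to 4 called genes of smallest p per comparison and known direct partners are named, with the 5 genes of most similar pattern per member and the nearest neighbours.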

Additional observations from a re-analysis of the deposited data

How the results depend on the processing

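The calls of Myb in pro-HSC/HPC against E9.5 HE, in pre-HSC I against E10.5 HE and in HE from E9.5 to E10.5 were kept in every alternative, at 5.72 to 7.56, 4.10 to 5.08 and 3.15 to 5.001 on the log2 scale. Calls near the threshold were not. Myb in E10.5 HE against EC was not called by DESeq2 (2.75), limma voom (2.70) or in the fit of only those libraries (2.74), and ran from 2.10 to 3.51 with 1 library left out. Mybl2 in the same comparison was lost with limma voom (−1.33) and in the restricted fit (−1.35), and ran from −1.72 to −1.06. Of 14 alternatives each, the Myb call there was kept in 7 and the Mybl2 call in 8. For Mybl2 in E9.5 HE against E8.5 HE the restricted fit gave −1.21 without a call, and leaving out 1 library gave −1.44 to −0.92. Mybl2 in pre-HSC I against HE ran from 1.40 to 1.95.

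Further calls appeared for Myb in pre-HSC I against pro-HSC/HPC (limma voom 2.04, restricted fit 1.93), Mybl1 in HE from E9.5 to E10.5 (DESeq2 −1.81, limma voom −2.18), Mybl1 in EC from E8.5 to E9.5 (limma voom 1.74; 1.04 to 1.88 with 1 library left out), Mybl2 in that comparison (DESeq2 −0.96, limma voom −0.93, restricted fit −0.93) and Mybl2 in HE from E9.5 to E10.5 (−1.50 to −0.87 with 1 library left out).

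Uncalled differences changed sign. Myb in E8.5 HE against EC was −0.35 with limma voom and −0.11 to 1.01 with 1 library left out, and in EC from E8.5 to E9.5 −1.16 and −0.27 to 1.597. With 1 library left out, Myb ran from −0.48 to 1.32 in HE from E8.5 to E9.5 and from −0.98 to 1.49 in E9.5 HE against EC. Mybl1 ran from −0.64 to 0.088 in E10.5 HE against EC, from −0.14 to 0.74 in pre-HSC I against HE and from −0.48 to 0.40 between the pre-HSC populations. Mybl2 between the pre-HSC populations was −0.36 with limma voom and −0.13 to 0.45 with 1 library left out. In pro-HSC/HPC against E9.5 HE it was −0.00043 with DESeq2, −0.00045 with its size factors in edgeR, −0.076 with limma voom, −0.39 without the 2 hemoglobin-rich libraries and −0.26 to 0.26 with 1 left out. The cause of these changes was not tested.

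The labels give groups the same replicate numbers without saying what they share. Libraries of 1 day with the same number deviated together in all 30 pairs, by small correlations (0.0056 to 0.20, median 0.073, 11 of them over 0.1). With different numbers the median on 1 day was −0.045, and 26 of 27 libraries lay closest to a library of their own number on that day. Deviations within a population sum to 0, so values above 0 for same numbers push those for different numbers below 0. The 2 medians are therefore not independent. Across days, same-number libraries had a median of −0.0067. The main tests leave such sharing within a day out, so their p-values take no account of it. The replicate block also links numbers across days. A replicate block changed no call of a member and gave −0.14 for Myb in E8.5 HE against EC. A block of number within day, added after seeing the data, gave −0.11 there. It too changed no call of a member in the comparisons it covers, which are those within a day and the differences of differences. Among the listed genes, the block lost Cxcr4 in pre-HSC I against HE, left 1 of the 2 lower genes with SANT domains in E8.5 HE against EC, and moved the lower S phase genes in E10.5 HE against EC from 3 to 5, the higher mitotic genes in pre-HSC I against HE from 1 to 2 and the lower target genes in E10.5 HE against EC from 1 to 2. Within day, S phase genes numbered 11 lower in E10.5 HE against EC and 11 higher in pre-HSC I against HE. The block moved the count of genes called for the difference between the blood steps from 11 to 34, and the block within day to 527. The block within day raised the count in every comparison it covers. In E10.5 HE against EC it went from 530 to 1316, and in pre-HSC I against HE from 1049 to 2327.

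Genes called numbered 1038 in E8.5 HE against EC (191 to 2193 over all alternatives), 46 at E9.5 (11 to 287) and 530 at E10.5 (284 to 1316). They numbered 100 for pro-HSC/HPC (24 to 398), 1049 for pre-HSC I against HE (512 to 2327), 673 for pre-HSC II (468 to 990) and 221 for pre-HSC I against pro-HSC/HPC (24 to 1039). Between days they were 997 (264 to 1945) and 555 (210 to 1606) in HE, and 2999 (1714 to 5559) and 116 (26 to 954) in EC. For the change of the HE minus EC difference they were 455 (238 to 917). With library totals in place of TMM, mean Mybl2 in E8.5 EC was 45.5 CPM in place of 57.0, and mean Myb in pre-HSC II 261 CPM in place of 231. Of the genes most similar in pattern, 3, 0 and 1 of 5 stayed for Myb, Mybl1 and Mybl2 over single libraries and 0, 1 and 0 with Spearman.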

Other observations

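Within populations, the mean of the 7 E2F and RB genes was, among the 9 gene and marker lists compared in this way, the one whose deviations followed those of Mybl2 most closely: once population means were taken out, the Pearson correlation over the 28 libraries was 0.72, while across the uncorrected libraries it was 0.17. It is 1 of 27 relations computed between members and lists, it was picked after its value was seen, and the libraries share depth and scaling.

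Among genes whose RefSeq promoters could be found, the E2F-type motif GGCGGGA lay within 250 bases upstream in 4 of 15 mitotic genes (26.7%) and 2 of 11 S phase genes (18.2%), with 11% of all genes holding it. Over the 9 lists that share ran from 18.2% to 66.7%. The CHR letters lay in 5 of 15 (33.3%) and 3 of 11 (27.3%), with 19.6% of all genes.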
